A study of Mus musculus with 27 samples.

Results

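Infarct tissue of mice with chronic kidney disease (CKD) was compared with that of control mice 7 days after myocardial infarction. The comparison covers the 13 libraries, of 27 in the series, whose sample titles end in Infarct: 7 from mice titled as having CKD and 6 from mice titled Control, each library from a different mouse. Of the 27304 genes in the read-count table, 14358 had enough counts to be tested. All mice of both groups were male ApoE-/- animals of the C57BL/6J strain, which lack apolipoprotein E and so clear blood lipids poorly, and all had eaten a western type diet for 4 weeks and had undergone infarction. In the CKD group the western type diet was then given with 0.3% adenine for 10 days and with 0.15% adenine for another 11 days, of which 4 preceded the infarction. Controls stayed on the western type diet without adenine, and tissue of both groups was snap-frozen. Adenine feeding injures the kidney tubules, and the labels hold no measure of kidney function, infarct size or age, so CKD here means the adenine diet as a whole. The other 14 libraries came from myocardium remote from the infarct, 8 from CKD and 6 from control mice, and serve below as a reference and in 1 test. Among them, the library of mouse 9179 is titled CKD but has a treatment label of control. Both libraries of this mouse, infarct and remote, were counted as CKD by their titles.

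When a coronary artery is closed, the heart muscle behind it dies, and over the following days inflammatory cells clear it while fibroblasts turn into contractile, matrix-secreting myofibroblasts that build a scar. Surviving cardiomyocytes at the edge are packed with mitochondria, so a piece of infarct tissue mixes muscle RNA rich in energy metabolism with scar RNA rich in collagen. In such bulk samples fewer cells of a type and less RNA per cell cannot be told apart.

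The libraries varied widely in this mixture, and some stood apart from their group. The level of a list is the mean over its genes of log2 CPM, read counts scaled to a common library size. For 12 markers of heart muscle the level ran from 10.84 to 12.90 in CKD infarcts (median 11.69) and from 7.66 to 10.92 in control infarcts (median 10.65). CKD mice 9179 and 9172 had the highest muscle levels, 12.90 and 12.53, and the lowest levels of 14 fibrillar and associated collagens, 4.37 and 7.21, whereas the other 5 CKD libraries had collagen levels of 8.26 to 9.61. Control mice 9171 and 9183 lay at the opposite end, with muscle levels of 7.66 and 9.15. Among the other 5 CKD libraries the muscle levels were 10.84 to 11.85, so their lowest lay just below the highest control. The library of mouse 9179 also held atrial RNA: Myl7, the atrial myosin light chain, was at 236 CPM there and at 0.173 to 3.09 CPM in the other 12 libraries. Scaled over all 27 libraries, the list levels of mouse 9179 lay within or just beyond the range of the 8 CKD remote libraries: 12.78 against 12.40 to 12.77 for heart muscle, 4.24 against 4.52 to 5.69 for the collagens, 2.81 against 2.38 to 4.27 for activated fibroblasts and 4.49 against 4.23 to 5.20 for macrophages. Mouse 9172 lay between the CKD remote libraries and the other 11 infarct libraries for the collagens (7.02), for activated fibroblasts (5.37) and for macrophages (5.96). Results are therefore given with and without mice 9172 and 9179, and an alternative chosen after seeing the data leaves out control mice 9171 and 9183 as well. Read depth was similar, with 14255456 to 29506790 counts per library (median 20214145), and Apoe, which all these mice lack as a functional gene, still gave 11.4 to 38.7 CPM (median 27.5) in controls and 13.6 to 37.1 CPM (median 18.4) in CKD mice.

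**Figure D1:**
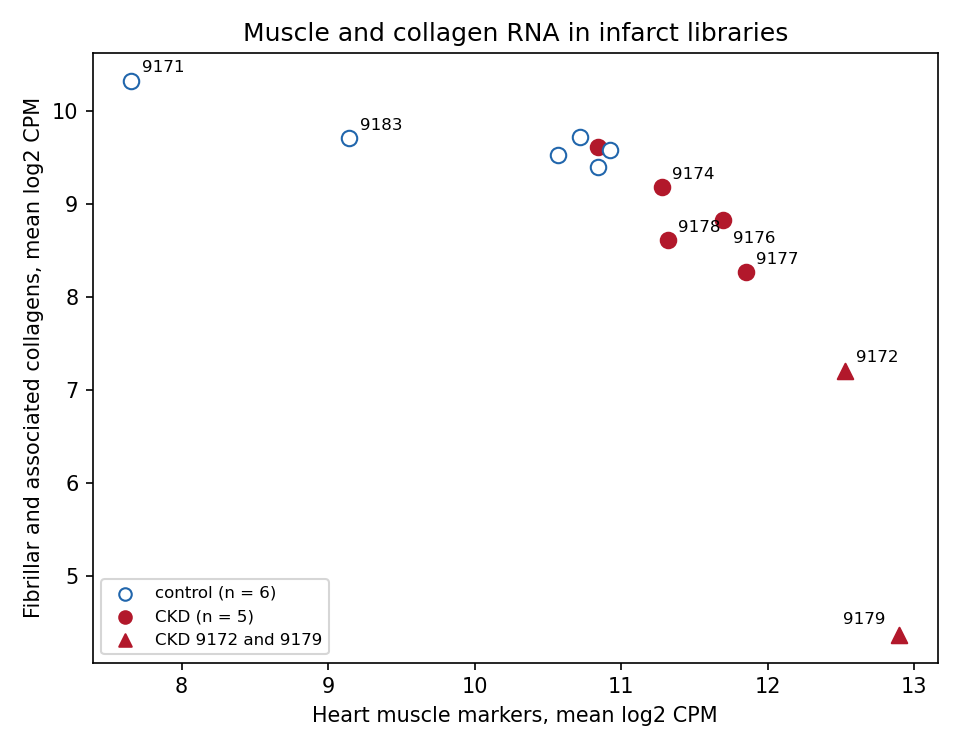
Level of 12 heart muscle markers (x axis) against the level of 14 fibrillar and associated collagens (y axis), both as mean log2 CPM, for the 13 infarct libraries. Mouse numbers mark the libraries away from the centre. CKD libraries of mice 9172 and 9179 lie at the muscle-rich, collagen-poor end and control mice 9171 and 9183 at the muscle-poor end.

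The comparison asks how CKD changes the infarct. Genes called higher in CKD infarcts included all 14 listed for complex I of the respiratory chain, 15 of 15 for the tricarboxylic acid cycle, 9 of 15 for the sarcomere and 8 of 12 for calcium handling. Genes called lower included 5 of 14 for the basement membrane, 4 of 14 for elastic fibres, 4 of 14 of the ADAMTS proteases and 5 of 13 for hedgehog signalling and cilia, so that most members of these lists did not pass. With all 13 libraries, edgeR's quasi-likelihood test called 2908 of 14358 genes (20.3%) at a Benjamini-Hochberg adjusted p under 0.05, of which 1883 (13.1%) were higher and 1025 (7.14%) lower in CKD. Of the called genes, 657 higher and 188 lower ones changed by more than 1 on the log2 scale. In the list counts below, genes that rose or fell are those called higher or lower. Members not called can point the same way. The calls lay close to the threshold: the lowest adjusted p was 0.0345, a value that 1181 genes shared, and the count was 0 in 5 of the 13 fits that each left out 1 library (those of controls 9171, 9182 and 9183 and of CKD mice 9172 and 9177).

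Without mice 9172 and 9179, edgeR called 0 of 14515 genes (0%), with a lowest adjusted p of 0.0702. At an unadjusted p under 0.05, that fit still had 2000 genes higher (13.8%) and 2064 lower (14.2%). Of the 1883 genes called higher with all libraries, 1879 could be tested without the pair; all 1879 pointed the same way and 1759 had an unadjusted p under 0.05. All 1025 genes called lower pointed the same way, each with an unadjusted p under 0.05. The sizes shrank, from a median log2 fold change of 0.80 to 0.54 for the higher genes and from -0.67 to -0.54 for the lower genes. These counts describe the same mice, since the 11 libraries are part of the 13. Called higher genes were also the more strongly expressed ones in remote myocardium, with a median of 56.3 CPM there against 11.0 CPM for called lower genes and 15.9 CPM for all tested genes.

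**Figure D2:**
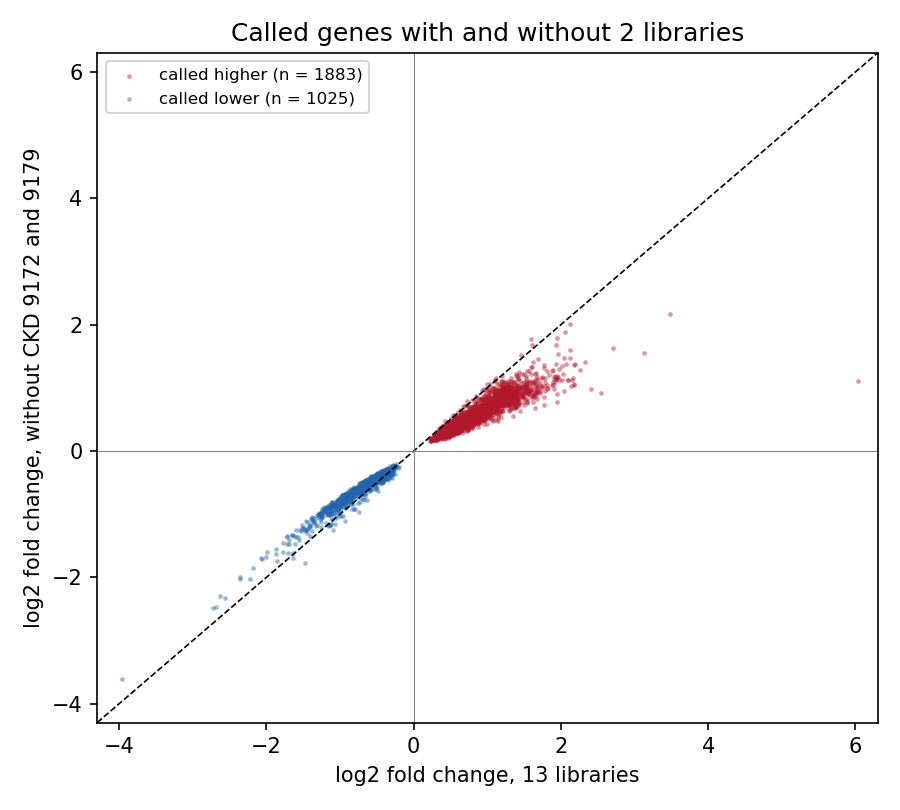
Log2 fold change, CKD minus control, of the genes called in infarct tissue, with all 13 libraries (x axis) and without CKD mice 9172 and 9179 (y axis). Each point is a gene and the dashed line marks equal values; the points keep their sign and lie mostly closer to 0 on the y axis.

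Genes of the respiratory chain rose nearly without exception. The respiratory chain passes electrons from complex I to complex IV and drives ATP synthase. All 14 complex I genes rose, with a median log2 fold change of 1.40 over the list against -0.02 over all genes tested. Of 16 genes of complexes II to V, 15 rose and all 16 had positive fold changes (median 1.41). All 13 genes encoded in the mitochondrial genome rose (median 1.56). Without mice 9172 and 9179 these medians were 0.89, 0.89 and 1.0, and with the heart muscle level as a covariate 0.21, 0.21 and 0.25.

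Ndufa10, a complex I subunit, stood at 74.00 to 248 CPM (median 234) in controls and at 332 to 834 CPM (median 451) in CKD infarcts. Every CKD library exceeded every control. Its log2 fold change was 1.43 ± 0.34 (SE; adjusted p = 0.0345) with all libraries and 0.99 ± 0.29 without mice 9172 and 9179. Genes without overlap between groups were uncommon: 628 of 14358 (4.37%) were higher in all 7 CKD than in all 6 control libraries and 256 (1.78%) lower, and in the 11 libraries the shares were 4.50% and 2.0%. Of the 14 complex I genes, 10 showed no overlap in the 11 libraries. Cyc1, cytochrome c1 of complex III, was at 82.2 to 369.6 CPM (median 303) in controls and 418 to 1339.6 CPM (median 608) in CKD, again without overlap. The mitochondrially encoded mt-Atp8, a subunit of ATP synthase, was at 32.96 to 142 CPM (median 97.2) in controls and 160.2 to 461 CPM (median 199) in CKD, so that its groups too were separate.

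Mitochondrial ribosomal proteins, which build the translation machinery inside the organelle, rose in 14 of 14 cases with a smaller median of 0.81 (0.52 without mice 9172 and 9179). In the 11 libraries, 12 of these 14 genes showed no overlap between groups. Mrpl45, a protein of the large subunit, was at 24.5 to 39.4 CPM (median 34.8) in controls and 45.97 to 136 CPM (median 54.4) in CKD infarcts. Mice 9172 and 9179 were far above the rest, at 92.3 and 136 CPM, and the other 5 CKD mice still lay above all controls, at 45.97 to 62.3 CPM (median 51.02). The log2 fold change was 1.08 ± 0.25 with and 0.64 ± 0.13 without the pair (unadjusted p = 0.000274 in the smaller set).

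Other mitochondrial genes among those with the smallest p, with all libraries or without mice 9172 and 9179, rose too. Oxa1l, which inserts proteins into the inner membrane, had a log2 fold change of 0.71 ± 0.14, from 52.5 to 67.5 CPM (median 62.9) in controls to 76.3 to 138 CPM (median 90.9) in CKD, without overlap. Etfrf1, a regulator of the electron transfer flavoprotein, rose by 1.10 ± 0.21 and the micropeptide gene Mtln by 1.08 ± 0.22. Timm13, a chaperone for proteins of the inner membrane, rose by 0.81 ± 0.21, Lias, which makes lipoic acid, by 0.86 ± 0.18, and Oma1, an inner membrane protease, by 0.75 ± 0.15. Alas1, the first enzyme of haem synthesis outside red cells, rose by 1.19 ± 0.23. All of these had an adjusted p of 0.0345. Of 12 biogenesis regulators 8 rose, among them the nuclear receptor Esrra (1.07 ± 0.28) and the mitochondrial RNA polymerase Polrmt (0.57 ± 0.14), and of 12 genes for fusion, fission and quality control 6 rose, among them Mfn2 (1.08 ± 0.28) and Immt (1.06 ± 0.25).

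Since nuclear genes of mitochondria moved together, their promoters were searched for sites of factors known from mitochondrial, muscle and scar genes. RefSeq promoter sequences (GRCm38.p6, 250 bases before to 50 after the start) matched 11352 of the 14358 tested genes. Sites of NRF1, a factor that binds many promoters of respiratory genes, were searched as GCGCANGCGC on both strands. They occurred in 12.4% of 1535 promoters of genes called higher, 7.32% of 792 of genes called lower and 9.70% of all tested genes, and in 17 of the 92 promoters from the 8 mitochondrial and fuel lists. For 4 genes that rose, 1 site each is shown with the bases on either side of it, read along the gene's strand with the site in capitals. Mrpl45 is from chr11:97315648-97315715 on the plus strand, Mrpl44 from chr1:79775953-79776017 on the plus strand, Sdhd from chr9:50603889-50603958 on the minus strand and Sdha from chr13:74350256-74350325 on the minus strand.
Mrpl45: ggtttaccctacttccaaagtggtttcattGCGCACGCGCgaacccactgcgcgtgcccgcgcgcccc
Mrpl44: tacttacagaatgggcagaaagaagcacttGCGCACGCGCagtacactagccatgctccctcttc
Sdhd: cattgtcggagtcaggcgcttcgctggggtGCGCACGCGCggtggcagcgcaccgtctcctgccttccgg
Sdha: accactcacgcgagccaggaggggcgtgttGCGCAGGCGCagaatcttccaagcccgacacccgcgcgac
The printed sites end 28, 25, 69 and 45 bases before the start, in that order. Mrpl45 has another site that ends 110 bases before the start, and Sdha has others that end 88 and 0 bases before it. Sdhd and Sdha are subunits of succinate dehydrogenase, and their log2 fold changes were 1.14 ± 0.29 and 1.16 ± 0.29; Mrpl44 was at 0.81 ± 0.19. The ERR element TCAAGGTCA was present in 0.326% of promoters of higher, 0.126% of lower and 0.291% of all genes, which are only 5, 1 and 33 promoters. The GC box GGGCGG was in 60.4%, 69.8% and 62.3%, the TEAD site GGAATG in 12.6%, 14% and 12.1%, and the SMAD element CAGAC in 47.2%, 48.1% and 48.0%. MEF2 sites, known from muscle genes, were in 1.11%, 0.758% and 0.564% (17, 6 and 64 promoters). CArG boxes, bound by serum response factor, were in 1.43%, 1.52% and 1.31% (22, 12 and 149 promoters). Matching letters do not show that a factor was bound.

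Fuel-handling pathways rose alongside. All 15 genes of the tricarboxylic acid cycle and pyruvate entry rose (median 1.24), as did 14 of 16 for fatty acid uptake and oxidation (median 1.22), 12 of 13 for ketone and branched-chain amino acid use (median 1.05) and 13 of 15 for glucose uptake and glycolysis (median 0.97). Without mice 9172 and 9179 the medians were 0.89, 0.82, 0.72 and 0.75. Cs, citrate synthase, was at 168 to 495 CPM (median 379.7) in controls and 497 to 1278 CPM (median 800.1) in CKD infarcts. The groups did not overlap, and the log2 fold change was 1.29 ± 0.30 with all and 1.0 ± 0.29 without the pair. Bcat2, the mitochondrial aminotransferase of branched-chain amino acids, was at 40.03 to 73.6 CPM (median 64.9) against 89.4 to 193 CPM (median 111), again separate (1.05 ± 0.22, and 0.72 ± 0.16 without the pair). Echs1, an enzyme of the fatty acid spiral, rose by 1.19 ± 0.29, the glycolytic Gpi1 by 0.68 ± 0.18 and the phosphate-transfer enzyme Ak1 by 1.14 ± 0.31.

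Contraction and excitation genes were called higher in part by edgeR. Fold changes were positive for 15 of 15 sarcomere, 11 of 12 calcium-handling and 14 of 14 ion channel and gap junction genes. DESeq2 called 12, 11 and 11 of them higher, against 2797 of all 14358 genes tested. The list of heart muscle markers, whose level served as the covariate, had 7 of 12 members called higher. Of 15 sarcomere genes 9 rose (median 1.23, and 1.05 without the pair), among them Actn2, which anchors thin filaments at the Z disc (1.23 ± 0.34), and Tnnc1, the calcium-binding troponin C (1.77 ± 0.50). Of 12 calcium-handling genes 8 rose, with Casq2, the calcium store protein, at 81.1 to 445 CPM (median 326) in controls and 469 to 1198 CPM (median 625) in CKD, without overlap (1.41 ± 0.36). Of 14 ion channel and gap junction genes 6 rose. Kcnq1, a potassium channel that ends the action potential, was at 7.67 to 23.5 CPM (median 17.3) in controls and 25.6 to 61.6 CPM (median 37.6) in CKD infarcts; every CKD library was above every control. Its log2 fold change was 1.31 ± 0.27 with all libraries, 1.15 ± 0.28 without mice 9172 and 9179, and 0.57 ± 0.23 with the muscle level as a covariate.

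Of 13 cardiac transcription factors 6 rose. Hand2, known from heart chamber formation, was at 16.7 to 31.3 CPM (median 27.9) against 37.02 to 80.5 CPM (median 50.2) without overlap, and its fold change went from 1.04 ± 0.20 to 0.76 ± 0.15 without the pair. Irx4, of ventricular muscle, was at 1.41 ± 0.38, and Nkx2-5 at 1.10 ± 0.28. The stress genes of the heart differed from each other: the small heat shock genes Cryab and Hspb7 rose (1.20 ± 0.34 and 1.20 ± 0.35), while Nppa (0.11 ± 0.64, adjusted p = 0.909) and Nppb (0.47 ± 0.48, adjusted p = 0.474), the natriuretic peptides, did not pass, and neither did Myh6 (1.62 ± 0.55, adjusted p = 0.0512).

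Of the renin-angiotensin, endothelin and mineralocorticoid list, Agt, the angiotensin precursor, changed by 1.35 ± 0.34 and Agtr1a, the main angiotensin receptor, by 1.23 ± 0.33; in both the groups overlapped.

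**Figure D3:**
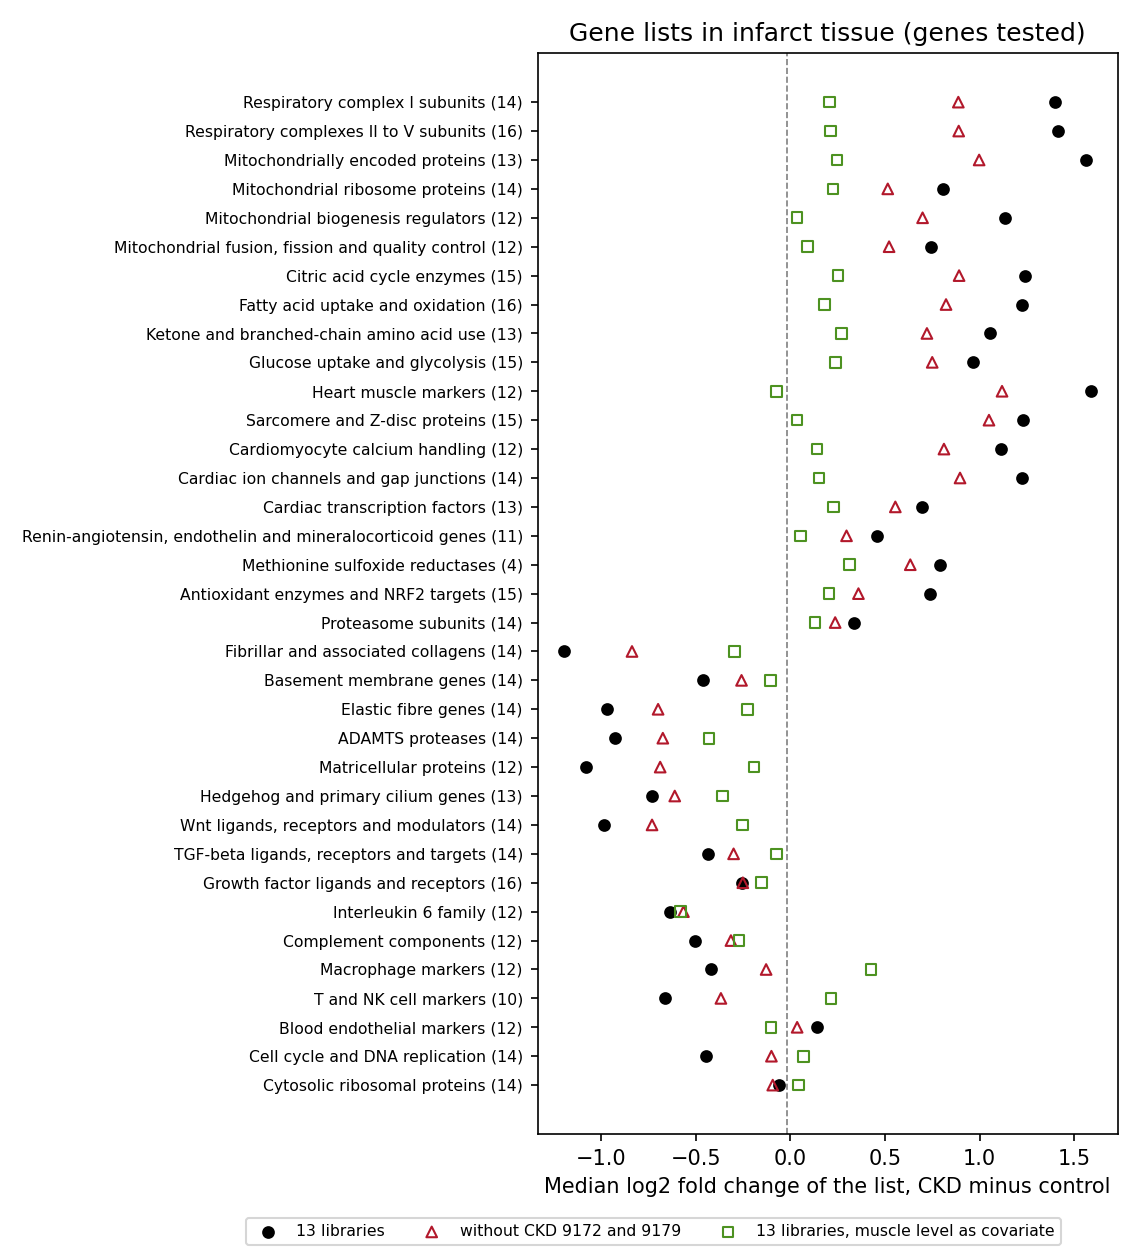
Median log2 fold change, CKD minus control, of gene lists in infarct tissue, with all 13 libraries, without CKD mice 9172 and 9179, and with all libraries and the heart muscle level as a covariate. The dashed line is the median of all tested genes with 13 libraries; the medians of mitochondrial and muscle lists lie to the right and those of matrix lists to the left, and the covariate moves both toward 0.

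Redox repair and protein turnover were further groups with called genes. Methionine sulfoxide reductases restore oxidised methionine in proteins, and 3 of 4 rose. Msrb1, the selenoprotein of the family, was at 107 to 134 CPM (median 119.8) in controls and 158 to 233 CPM (median 194) in CKD infarcts. Mice 9172 and 9179 were not its highest libraries, as mouse 9175 was above both at 233 CPM. Its log2 fold change was 0.67 ± 0.11 (adjusted p = 0.0345), 0.58 ± 0.12 without the pair and 0.55 ± 0.14 with the covariate. Msra was at 16.5 to 34.3 CPM (median 28.6) against 41.1 to 68.5 CPM (median 48.2), also without overlap (0.91 ± 0.17), and the mitochondrial Msrb2 changed by 1.09 ± 0.27.

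Of 15 antioxidant genes 9 rose (median 0.74, and 0.36 without the pair), including Gpx4, which reduces lipid peroxides (0.90 ± 0.25), and the mitochondrial thioredoxin Txn2 (0.90 ± 0.23). Of 14 proteasome subunits 9 rose by small amounts (median 0.34). Psmc1, an ATPase of the regulatory particle, was at 114 to 142 CPM (median 132) in controls and 157 to 244 CPM (median 176) in CKD, without overlap (0.51 ± 0.12, and 0.37 ± 0.10 without the pair). Of 14 genes of the secretory pathway and endoplasmic reticulum stress, 1 was called higher and 3 lower. Ddit3, a pro-death factor of the unfolded protein response, rose (0.66 ± 0.16), while Xbp1 (-0.47 ± 0.15), Creld2 (-0.47 ± 0.15) and Pdia6 (-0.68 ± 0.23), which serve folding in the endoplasmic reticulum, fell.

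Matrix genes gave fewer calls, and those called were lower in CKD infarcts. Of 14 fibrillar and associated collagens edgeR called 0, with a median of -1.20 (-0.84 without mice 9172 and 9179, where 8 had an unadjusted p under 0.05). With all libraries 6 had an unadjusted p under 0.05, against 5765 of all 14358 genes tested. DESeq2 and limma-voom each called 3 of the collagens lower, against 1760 and 1053 of all genes. Col14a1, of the collagens that coat fibrils, was at 428 to 882 CPM (median 503) in controls and 11.1 to 402 CPM (median 210.5) in CKD. Its groups did not overlap, and mouse 9179 was the lowest at 11.1 CPM. The log2 fold change of -1.42 ± 0.53 did not pass (adjusted p = 0.0688). It was -1.20 without mouse 9179 (adjusted p = 0.0459) and -1.06 ± 0.25 without the pair (adjusted p = 0.0855). Col1a1 (-1.28 ± 0.70, adjusted p = 0.182) and Postn (-1.11 ± 0.62, adjusted p = 0.194) did not pass, with SEs that shrank from 0.70 to 0.38 and from 0.62 to 0.29 once the pair was left out.

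Basement membrane genes fell in 5 of 14 cases. Lamb1, a laminin chain, was at 227 to 313 CPM (median 246) in controls and 81.2 to 209 CPM (median 164) in CKD, without overlap (-0.68 ± 0.19). Nid1, which links laminin to collagen IV, was separate too, at 445 to 678 CPM (median 486) against 83.2 to 424 CPM (median 274) (-0.93 ± 0.28, and -0.72 ± 0.17 without the pair). Of 14 elastic fibre genes 4 fell (median -0.97), and 12 of 14 had an unadjusted p under 0.05 without mice 9172 and 9179 (14.2% of all genes). Fbln5, needed to assemble elastin, was at 79.8 to 468 CPM (median 271) in controls and 30.1 to 153 CPM (median 77.3) in CKD; the groups overlapped, and the log2 fold change was -1.70 ± 0.45. Eln itself was at -2.07 ± 0.65 with all libraries and -0.35 ± 0.63 with the covariate.

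Enzymes that cut or finish matrix followed. Of 14 ADAMTS genes 4 fell. Adamts6, a secreted metalloprotease, was at 9.25 to 14.4 CPM (median 11.8) in controls and 3.62 to 7.33 CPM (median 5.46) in CKD infarcts. Every CKD library was below every control, with and without the pair, and the log2 fold change was -1.09 ± 0.16 and -0.99 ± 0.14; its adjusted p of 0.0702 without the pair was the lowest of all genes, shared with Boc and Armcx4. Among matrix metalloproteases and their inhibitors, Timp3 (-0.90 ± 0.22) and Mmp16 (-1.62 ± 0.41) fell. Plod2, which prepares collagen for cross-linking, fell from 96.2 to 155 CPM (median 121) in controls to 27.5 to 96.7 CPM (median 57.2) in CKD (-1.13 ± 0.27), and the procollagen protease Bmp1 changed by -0.97 ± 0.29. Thbs1, a matricellular protein that activates latent TGF-beta, was at 348 to 1242 CPM (median 614) against 10.2 to 407 CPM (median 182). The groups overlapped, and the fold change was -1.99 ± 0.61 with and -1.59 ± 0.36 without the pair. The proteoglycan Prelp changed by -1.16 ± 0.27.

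Some genes of hedgehog, Wnt, TGF-beta, activin and Notch signalling were lower. The hedgehog and cilium list, whose proteins sense hedgehog ligands or sit on the primary cilium, had 5 of 13 members lower, and 5 without overlap in the 11 libraries. Its list level was 4.37 to 4.71 in controls and 3.94 to 4.23 in CKD without mice 9172 and 9179, which were lower still (3.72 and 3.02). Boc, a hedgehog co-receptor, was at 18.6 to 35.1 CPM (median 26.9) in controls and 5.02 to 14.1 CPM (median 11.7) in CKD infarcts. The lowest control was above the highest CKD library, and the log2 fold change was -1.26 ± 0.21 with all, -1.12 ± 0.16 without the pair and -0.80 ± 0.20 with the covariate. Its partner Cdon changed by -0.94 ± 0.21. The polycystins Pkd1 and Pkd2, which form a calcium channel complex of the cilium, were separate between groups as well: Pkd1 stood at 145 to 211 CPM (median 159) against 74.3 to 119 CPM (median 95.3) (-0.85 ± 0.14) and Pkd2 at 93.7 to 146 CPM (median 114) against 47.7 to 87.7 CPM (median 66.3) (-0.73 ± 0.16).

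The Wnt list had 4 of 14 genes lower (median -0.98), among them the receptors Fzd7 (-0.72 ± 0.19), Fzd2 (-1.11 ± 0.37) and Fzd8 (-0.85 ± 0.26). Fzd7 was at 20.4 to 33.1 CPM (median 25.1) in controls and 8.30 to 19.9 CPM (median 16.3) in CKD, without overlap. Of 14 TGF-beta pathway genes 4 fell: the ligand Tgfb3 (-1.30 ± 0.42), the signal carrier Smad3 (-0.45 ± 0.14), the repressor Skil (-0.71 ± 0.17) and the latency protein Ltbp4 (-0.64 ± 0.19). Skil was separate between groups, at 44.2 to 64.5 CPM (median 50.8) against 19.1 to 42.3 CPM (median 33.2). Inhba, a subunit of activin, fell (-1.17 ± 0.36), and of the Notch list Jag1 (-0.76 ± 0.18) and Notch2 (-0.71 ± 0.23) fell. Vgll3, a partner of TEAD factors, changed by -1.13 ± 0.32 and the collagen-binding integrin chain Itga11 by -1.87 ± 0.51, while Itga7, the laminin-binding chain of muscle, rose (0.84 ± 0.25).

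Growth factor genes split: Fgf1 rose (1.02 ± 0.27), and 4 of 16 fell, among them the receptors Egfr and Fgfr1 (-0.70 ± 0.21) and the ligand Vegfc. Egfr was at 32.6 to 46.9 CPM (median 37.6) in controls and 7.53 to 31.5 CPM (median 24.5) in CKD (-0.89 ± 0.25), and Vegfc, which drives lymphatic growth, at 13.6 to 18.1 CPM (median 15.7) against 8.59 to 13.2 CPM (median 10.8) (-0.55 ± 0.12). Neither overlapped, and Vegfc kept a similar size without the pair (-0.50 ± 0.11) and with the covariate (-0.41). Other genes with the smallest p among those lower were Spsb1, an adaptor of ubiquitin ligases (-0.72 ± 0.11), the kinase gene Cdc42bpa (-0.44 ± 0.08), the transcription factor Klf3 (-0.45 ± 0.08) and Zfp451 (-0.52 ± 0.08). Armcx4 was at 16.5 to 23.8 CPM (median 17.6) against 4.68 to 11.3 CPM (median 9.94); its fold change was -0.99 ± 0.17 with and -0.90 ± 0.12 without mice 9172 and 9179 (unadjusted p = 6.97e-06). Among called genes without overlap whose mean reached 5 CPM, the largest decrease was that of Prss35, a protease-like secreted protein, at 5.64 to 24.2 CPM (median 9.24) in controls and 0.187 to 4.81 CPM (median 2.08) in CKD (-2.37 ± 0.61).

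**Figure D4:**
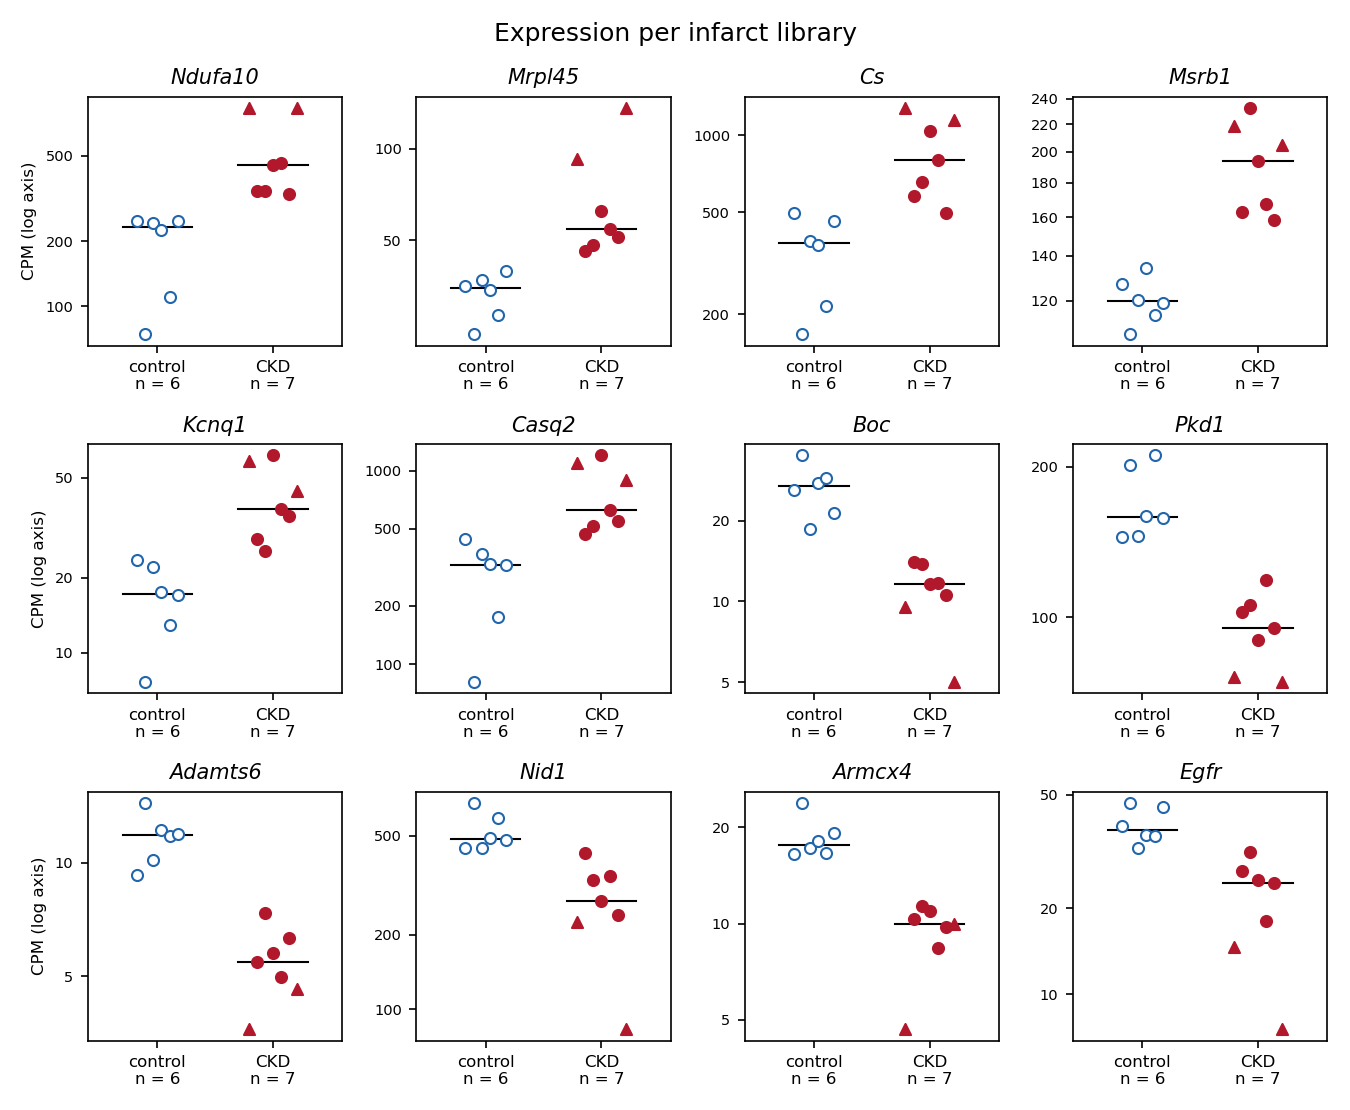
CPM on a log axis of 12 genes in the 6 control and 7 CKD infarct libraries. Open circles are controls, filled circles CKD mice, and filled triangles CKD mice 9172 and 9179, and bars mark group medians; the groups do not overlap in any of the 12 genes.

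Inflammatory genes gave few calls. EdgeR called 0 of 17 chemokine, 0 of 14 interferon-stimulated and 0 of 14 lysosome and lipid-laden macrophage genes, and DESeq2 and limma-voom also called 0. With all libraries 2, 1 and 0 of them had an unadjusted p under 0.05, against 5765 of all 14358 genes tested. Without mice 9172 and 9179 these counts were 1, 0 and 0, against 4064 of all 14515 genes. The interleukin 6 family had 3 of 12 lower. Il6 itself was low, at 1.63 to 42.9 CPM (median 4.68) in controls and 0 to 3.77 CPM (median 1.53) in CKD infarcts. The groups overlapped, and control mouse 9184 stood out at 42.9 CPM; the log2 fold change was -2.63 ± 0.80 (adjusted p = 0.0394), -2.29 ± 0.81 without the pair and -2.88 with the covariate. Without control mouse 9184 it was -1.27 (adjusted p = 0.132), and by limma-voom -1.51 (adjusted p = 0.1497). Its relatives Osmr, the oncostatin M receptor (-0.57 ± 0.18) and Clcf1 (-0.70 ± 0.20) also fell, and Osmr was at -0.38 without control mouse 9184. Il1r1, the interleukin 1 receptor, was at 62.7 to 162 CPM (median 94.2) in controls and 21.1 to 77.3 CPM (median 46.9) in CKD (-1.06 ± 0.27, and -0.89 ± 0.34 with the covariate). Of 12 complement genes, Cd55, which restrains complement on cells (-1.05 ± 0.28), and C1s1 (-0.73 ± 0.23) fell.

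Markers of other cell types gave few calls. Markers of macrophages, of MHC class II cells and of monocytes and neutrophils (12 each), of T and NK cells (10), of B and plasma cells (5), of mesothelium (6), of lymphatic vessels (6) and of red cells (5) had 0 genes called by edgeR, with medians from -0.66 to -0.09. Of these lists, monocytes and neutrophils had 3 members, T and NK cells 2 and lymphatic vessels 1 at an unadjusted p under 0.05. In the same order, DESeq2 called 3, 2 and 1 members and limma-voom 1, 0 and 0. The other lists had 0 by all 3 measures. Over all 14358 genes tested, 5765 had an unadjusted p under 0.05, DESeq2 called 4557 and limma-voom 2367. Macrophage levels were 6.59 to 7.64 in controls and 6.55 to 7.68 in 5 CKD mice, against 6.15 and 4.61 in mice 9172 and 9179. Chil3, a product of inflammatory monocytes, was at 1.62 to 8.21 CPM (median 3.34) in controls and 1.25 to 44.4 CPM (median 7.61) in CKD, and its log2 fold change of 1.75 ± 0.68 did not pass (adjusted p = 0.0771). The endothelial list had 1 of 12 called, Flt1, a receptor for VEGF (0.96 ± 0.30). The mural list had 3 of 12 called lower, Acta2 (-1.13 ± 0.30), Pdgfrb (-0.75 ± 0.25) and the weakly expressed Tagln (-0.87 ± 0.28). Its members split into 8 negative and 4 positive fold changes, the highest at 0.99. Acta2 also belongs to the activated fibroblast list and counts again among the calls of that list. Activated fibroblast markers were called lower in 3 of 12 cases, and the list level was 7.46 to 8.69 in controls and 6.84 to 7.80 in 5 CKD mice, against 5.56 and 2.94 in mice 9172 and 9179. Cell cycle (0 of 14) and cytosolic ribosome genes (0 of 14) gave no call by edgeR, DESeq2 or limma-voom, and 0 members had an unadjusted p under 0.05. Of the 4 atrial muscle markers tested, Myl7 was called higher and Dkk3 lower. Dkk3, also on the Wnt list, had a median of 134 CPM in controls and 70.8 CPM in CKD. For Myl7, mouse 9179 was far above the rest. The Myl7 fold change of 6.03 ± 1.80 became 1.11 ± 0.56 without the pair and 1.25 without mouse 9179 alone. How far the differences in muscle, fibroblast and macrophage RNA contribute to the changes above was not tested beyond the covariate fit.

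Single pathways gave scattered changes. In iron handling, Tfrc, which imports iron, rose (1.62 ± 0.50) and the exporter Slc40a1 (-1.03 ± 0.32) and Tfr2 (-1.26 ± 0.41) fell. Of 14 clock genes, Arntl, the core activator, fell from 18.04 to 34.03 CPM (median 23.1) in controls to 4.43 to 22.7 CPM (median 9.87) in CKD (-1.14 ± 0.32), and the repressor Ciart rose (1.39 ± 0.42). Of 12 hypoxia targets 2 were called, the oxygen sensors Egln1 (0.95 ± 0.27) and Egln3 (1.06 ± 0.33), both higher. That list split into 6 positive and 6 negative fold changes (median 0.10). Of the lists bearing on kidney failure, the aryl hydrocarbon receptor pathway had 1 of 6 called, Nqo1 (0.98 ± 0.30), the list of mineral and phosphate handling receptors 1 of 4, the transporter Slc20a2 (0.72 ± 0.19), and the glucocorticoid list 1 of 12, the metallothionein Mt1 (0.72 ± 0.23). Over all genes tested 20.3% were called, so these shares are near or below the background. Col2a1, a cartilage collagen, was at 0.101 to 28.1 CPM (median 8.58) in controls and 0 to 1.48 CPM (median 0.621) in CKD; its groups overlapped, since 3 controls were at 0.101 to 1.71 CPM, and the log2 fold change was -3.96 ± 1.0, or -3.36 without control mouse 9171.

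Fitting the heart muscle level as a covariate asks what remains between mice of equal muscle content, at the cost of a term that itself differs between groups. In that fit edgeR called 0 genes (lowest adjusted p = 0.964), with 170 higher (1.18%) and 416 lower (2.90%) at an unadjusted p under 0.05. Over the genes called with all libraries, the median log2 fold change went from 0.80 to 0.20 with the covariate for those higher and from -0.67 to -0.30 for those lower, and 106 of 1883 and 213 of 1025 had an unadjusted p under 0.05 in the same direction. The genes that follow were chosen for the smallest p in the covariate fit. Lactb, a mitochondrial serine protease-like protein, was at 16.04 to 18.1 CPM (median 16.7) in controls and 19.7 to 28.8 CPM (median 21.9) in CKD, and its log2 fold change was 0.46 without and 0.52 with the covariate. Rbks, ribokinase, went from 0.47 to 0.50, and Atp6v0a1, a subunit of the lysosomal proton pump, from 0.41 to 0.44. Among lower genes, Sema6d, a guidance molecule, was at 37.8 to 44.02 CPM (median 41.4) against 26.9 to 35.95 CPM (median 31.1), with -0.38 without and -0.46 with the covariate, and Mapkbp1 went from -0.40 to -0.46. With the covariate and without mice 9172 and 9179, edgeR also called 0 genes, with 256 higher (1.76%) and 772 lower (5.32%) at an unadjusted p under 0.05. Without mice 9172 and 9179 and control mice 9171 and 9183, edgeR again called 0 genes (2286 at an unadjusted p under 0.05, lowest adjusted p = 0.207), and the fold changes were 0.47 for Lactb, 0.55 for Msrb1, -0.92 for Boc and 0.68 for Ndufa10.

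Whether the effect of CKD in the infarct differed from that in remote myocardium was tested as an interaction over all 27 libraries. EdgeR called 0 of 14770 genes (0%; lowest adjusted p = 0.111), with 2213 more positive in the infarct (15.0%) and 574 more negative (3.89%) at an unadjusted p under 0.05, and DESeq2 called 600, 572 of them more positive. In remote tissue alone, 3 of 13902 genes were called (0.0216%). The complex I genes had a median log2 fold change of 0.21 in remote tissue, against 1.40 in the infarct, and the hedgehog and cilium genes -0.30 against -0.73. Among the remote controls, mouse 9180 stood apart, with a collagen level of 8.45 against 4.89 to 6.54 in the other control remote libraries. Its heart muscle level of 11.44 lay below the 12.28 to 12.65 of those libraries. How far this library moves the remote values was not tested. Msrb1 was at 0.12 in remote tissue, with a difference of 0.56 ± 0.14 (adjusted p = 0.165), Ndufa10 at 0.27 with a difference of 1.18 ± 0.36 (adjusted p = 0.165), and Armcx4 at 0.39 with a difference of -1.38 ± 0.27 (adjusted p = 0.165). The remote library of mouse 9179, titled CKD, has a treatment label of control. It was counted as CKD, as was the infarct library of the same mouse. Without that remote library the interaction fit of edgeR also called 0 genes, with 2730 at an unadjusted p under 0.05. In the infarct comparison, leaving out the infarct library of mouse 9179 gave 1644 called genes.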

How the data were processed

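Bulk RNA was sequenced from 27 heart tissue libraries, and 1 library of each of 13 mice came from the infarct. The authors deposited whole-number read counts per gene for all 27 libraries. Each of the 27 columns was matched to a sample by the library name in the sample's description, and the sample title gave group and mouse. The submitters' processing notes name kallisto 0.48.0 and the GRCm39 genome build; how transcript estimates became gene counts is not given in the sources used here. In the deposited count table, 27 gene symbols read as dates and were restored by gene ID, and 479 entries share a symbol with another. No 2 libraries were alike within sampling noise: a chi-square of 18.7 for each degree of freedom was the smallest over 36 pairs within groups.

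Genes were tested with edgeR 4.0.16 (TMM scaling, filterByExpr, quasi-likelihood F test, Benjamini-Hochberg adjustment) in R 4.3.3 over the 13 infarct libraries, and the interaction over all 27. A gene is called at an adjusted p under 0.05. Standard errors are the absolute log2 fold change divided by the square root of F. CPM are TMM-scaled over the infarct libraries, and list levels are mean log2 CPM with a prior count of 2. The edgeR fit was tested on simulated data. Infarct libraries held 14255456 to 29506790 counts, and their number, 6 and 7, and their depth both limit the precision. The labels name a mouse for each library, so p-values of the infarct comparison measure the spread between mice. The interaction over all 27 libraries, by edgeR and by DESeq2, took libraries as independent, although 13 mice gave both regions. An edgeR fit with mouse as a replicate block is given below.

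Other settings tried were scaling by upper quartiles or by DESeq2's size factors, a filter at a mean of 1 CPM or none, the Wald test of DESeq2 1.42.0, sample-weighted limma-voom (3.58.1), all 27 libraries in 1 fit, the heart muscle level as a covariate, and leaving out libraries singly or together. Leaving out control mice 9171 and 9183 together with the pair was chosen after seeing the data. For the interaction, infarct and remote libraries of 1 mouse are paired by their labels: over 13 pairs the correlation of residuals ran from -0.10 to 0.40 (median 0.17).

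The comparison, gene lists and tests were chosen with earlier results of these data known. Genes were named by these rules: the 10 smallest p in each direction in the fit of all infarct libraries, in the fit without mice 9172 and 9179 and in the covariate fit (mean of at least 1 CPM); the 10 largest fold changes in each direction among called genes without overlap (mean of at least 5 CPM); per list, the 4 called members of smallest p, or 2 members if none passed; and Apoe, Myh6, Nppa, Nppb, Col1a1 and Postn. The 4 genes whose promoters are printed were picked among these after their values were seen. Adipocyte markers were not tested, since 0 passed the filter. Trac, Ighm and Igkc were not analysed here, and a few genes of the lists are not reported here. Promoters came from RefSeq (GRCm38.p6), matched by gene, and no coordinate was moved between builds.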

Additional observations from a re-analysis of the deposited data

Results flagged for a closer look

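Of 86 sets of values in 1 group of infarct libraries, 8 had a single library far from the others of its group. The cut-off used flags about 1 in 20 sets of independent, normally distributed values. These sets share libraries and their distribution was not checked, so 8 of 86 cannot be set against that rate. Control mouse 9171 was the highest control for Armcx4, at 23.8 CPM with the next at 19.3 CPM, and the lowest for Hand2, at 16.7 CPM with the next at 27.8 CPM. The same mouse had the highest control level of fibrillar and associated collagens, 10.32 with the next at 9.72. Control mouse 9184 was highest for Il6, at 42.9 CPM with the next at 6.32 CPM, and for Chil3, at 8.21 CPM with the next at 3.93 CPM. Among CKD libraries, mouse 9175 was highest for Chil3, at 44.4 CPM with the next at 16.4 CPM. CKD mouse 9179 was highest for Myl7, at 236 CPM with the next at 3.09 CPM, and had the lowest level of the hedgehog and cilium list, 3.02 with the next at 3.72. The cause of these values was not tested.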

How the results depend on the processing

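The count of 2908 called genes was 1926 without a filter on low counts, 4557 with DESeq2 and 5067 with the fit of all 27 libraries. It was 0 with the heart muscle level as a covariate, without mice 9172 and 9179, with both together (1028 genes at an unadjusted p under 0.05, lowest adjusted p = 0.462), and without control mice 9171 and 9183 as well. Leaving out 1 library each gave 0 to 4651: the 5 fits at 0 lacked controls 9171, 9182 and 9183 and CKD mice 9172 and 9177, and the count was 1644 when CKD mouse 9179 was dropped, 1742 for 9176, 4651 for 9175 and 1898 for control 9180. The other scalings, filters and limma-voom gave 2367 to 2975, with 1314 of 2367 higher by limma-voom and 1632 of 2975 higher by upper-quartile scaling. The interaction gave 0 genes with mouse as a replicate block (2570 at an unadjusted p under 0.05, lowest adjusted p = 0.255) and without mice 9172 and 9179 (1524, lowest adjusted p = 0.318), so the pairing changed no call; DESeq2 called 600.

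Of 3190 fold changes of 133 named genes under the alternatives, 13 turned direction. Under the covariate these were Apoe (0.025), Myh6 (-0.009), Myl7 (-1.11) and Nppb (-0.083), and with the covariate and without the pair Apoe (0.041), Myh6 (-0.014), Nppa (-0.068) and Nppb (-0.175). Nppa was also at -0.36 by limma-voom and, leaving out 1 library each, ran from -0.38 to 0.294, below 0 in 4 of these fits. Of 544 list medians, 41 moved by more than the spread between libraries, all under the covariate or without 1 to 4 libraries; the cause was not tested. The groups of 6 and 7 mice, their differing muscle content and the missing infarct sizes limit these results, and depth does so for genes near 0 CPM such as Il6 and Col2a1.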

Other observations

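Several further genes of the infarct comparison moved outside the groups described above. Among energy genes, 5 of 8 for creatine kinase and adenylate metabolism rose (median 1.14, and 0.70 without mice 9172 and 9179), including Slc25a4, the exchanger of ADP and ATP (1.68 ± 0.48). Lpl, which frees fatty acids from blood lipids, stood at 213 to 979.8 CPM (median 828) in controls and 605 to 9596 CPM (median 1637) in CKD infarcts. The groups overlapped, and its fold change fell from 2.18 ± 0.65 to 1.04 ± 0.45 without the pair and to 1.53 without mouse 9179 alone. Thrsp and Mid1ip1, relatives known from fatty acid synthesis, both rose without overlap between groups. Thrsp was at 0.971 to 6.85 CPM (median 6.37) against 7.86 to 44.5 CPM (median 11.7) (1.93 ± 0.49) and Mid1ip1 at 38.4 to 61.99 CPM (median 54.4) against 69.3 to 149.8 CPM (median 118) (1.0 ± 0.19). The glutathione transferases Gstk1 (1.91 ± 0.51) and Gstm7 (1.90 ± 0.52) rose, and without the pair stood at 0.99 ± 0.33 and 1.05 ± 0.39. Hcn4, a pacemaker channel, was at 0.729 to 4.03 CPM (median 2.40) against 3.55 to 22.4 CPM (median 6.72) (2.02 ± 0.49), with overlap. Pacsin1, a membrane-bending protein, was at 0.555 to 1.86 CPM (median 0.917) in controls and 1.74 to 3.79 CPM (median 2.79) in CKD infarcts. Its groups overlapped, and its log2 fold change was 1.46 ± 0.29 with all libraries, 1.52 ± 0.30 without the pair and 1.13 with the heart muscle level as a covariate.

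Further lower genes included Comp, a cartilage matrix protein also known from scars (-2.08 ± 0.68), its relative Thbs2 (-1.72 ± 0.57), the BMP antagonist Chrdl1 (-1.71 ± 0.47) and Chad, a leucine-rich matrix protein (-1.48 ± 0.44). Chad was at 0.624 to 1.89 CPM (median 1.05) in controls and 0.146 to 1.16 CPM (median 0.323) in CKD, with overlap, and stood at -1.78 ± 0.41 without the pair and -1.83 with the covariate. Igsf10 was separate between groups, at 13.4 to 28.4 CPM (median 15.8) against 1.16 to 11.96 CPM (median 7.38) (-1.38 ± 0.36), as was Spred3, an inhibitor of MAP kinase signalling, at 7.54 to 13.2 CPM (median 9.05) against 1.45 to 6.76 CPM (median 3.62) (-1.25 ± 0.31). Igsf10 and Spred3 were at -1.10 ± 0.21 and -0.98 ± 0.20 without the pair and at -0.98 and -0.91 with the covariate. Phgdh, the entry enzyme of serine synthesis, was the 1 integrated stress response gene called of 11 (-1.11 ± 0.37). Of 14 YAP and MRTF genes 3 fell. Of 6 nerve and glial markers only Dbh, which makes noradrenaline, was called (1.61 ± 0.50, higher), and the list split into 4 positive and 2 negative fold changes. Over all genes tested 13.1% were called higher and 7.14% lower, so the shares of the stress response and nerve lists are near the background.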
